A study of Rattus norvegicus with 12 samples.

Results

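Mki67, Top2a, Cdk1 and Ccnb1 are genes of the mitotic cell cycle, and their transcripts were followed in the right lung of rats given bleomycin with or without nintedanib. The 4 genes were chosen by their Ensembl identifiers (ENSRNOG00000028137, ENSRNOG00000053047, ENSRNOG00000000632 and ENSRNOG00000058539, in that order), out of 32623 identifiers in the count table. Their symbols come from the choice of genes, since the table lists no gene names and the reference gene table holds no Ensembl identifiers. The 12 libraries came from male Sprague Dawley rats, 4 in each of 3 groups, each library from the homogenised right lung of 1 animal collected on day 28. SAL animals received saline into the trachea on days 0 and 4 and methylcellulose by mouth daily from day 7 for 3 weeks. BLM animals received bleomycin at 1 U/kg by the same route and on the same days, with the same oral methylcellulose. NINT animals received bleomycin in the same way and nintedanib, an inhibitor of several receptor tyrosine kinases, at 100 mg/kg by mouth in place of methylcellulose alone. None of the 3 groups received nintedanib without bleomycin. The labelled tissue could not be checked against lung markers, because no other identifier has a name here.

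A dividing cell copies its DNA in S phase and separates the copies in mitosis. Entry into mitosis is driven by the kinase CDK1, encoded by Cdk1, when it is bound to cyclin B1, encoded by Ccnb1, which accumulates towards mitosis and is destroyed as the chromosomes separate. Topoisomerase IIα, encoded by Top2a, untangles the copied chromosomes, and Ki-67, encoded by Mki67, coats their surface and is widely used to stain cycling cells. In the adult lung few cells divide at rest, and epithelial, endothelial, mesenchymal and immune cells can all re-enter the cycle after injury. Bleomycin breaks DNA, and its instillation into the airway is a common rodent model of lung fibrosis. A homogenate mixes all of these cells, so that fewer cycling cells and less transcript per cycling cell cannot be told apart in any value given here.

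Transcription of many mitotic genes depends on promoter elements known as the cell cycle genes homology region, with the core TTTGAA, and on CCAAT boxes bound by the factor NF-Y. The sequences before the start of the 4 genes are shown because the data below ask how far these genes move together, and these are the letters that mitotic promoters often share. They are RefSeq sequences of the build GRCr8, 5′ to 3′ on the strand of the gene, and TTTGAA and CCAAT on either strand are in capitals (TTCAAA and ATTGG on the other strand). All 4 symbols were found in the promoter table. Cdk1 is shown from chr20:19265043-19265251 (plus strand), Ccnb1 from chr2:33655226-33655475 (minus strand) and Top2a from chr10:84473094-84473343 (minus strand). For Mki67 only 30 bases, chr1:199952683-199952712 (minus strand), are shown, because its window lies inside the annotated gene. The stretch of Cdk1 stops where its annotated gene begins, which leaves out 1 of its TTTGAA matches.
Cdk1: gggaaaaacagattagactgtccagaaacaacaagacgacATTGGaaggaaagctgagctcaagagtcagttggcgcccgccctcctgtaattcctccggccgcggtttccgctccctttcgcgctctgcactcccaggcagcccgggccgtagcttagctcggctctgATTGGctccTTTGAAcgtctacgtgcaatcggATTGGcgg
Ccnb1: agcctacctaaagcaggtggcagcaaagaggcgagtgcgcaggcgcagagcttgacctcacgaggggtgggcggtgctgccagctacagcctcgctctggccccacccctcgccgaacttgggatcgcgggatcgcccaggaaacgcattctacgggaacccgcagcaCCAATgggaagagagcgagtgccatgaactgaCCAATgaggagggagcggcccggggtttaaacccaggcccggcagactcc
Top2a: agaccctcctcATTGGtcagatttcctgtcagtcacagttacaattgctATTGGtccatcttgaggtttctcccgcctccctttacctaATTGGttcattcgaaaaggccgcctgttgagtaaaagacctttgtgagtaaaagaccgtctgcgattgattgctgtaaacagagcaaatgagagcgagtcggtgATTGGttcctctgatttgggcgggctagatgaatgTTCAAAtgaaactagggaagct
Mki67: aaTTTGAAccgccgttttcgTTTGAATTGG

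In the 250 bases before the start, CCAAT was found 3 times for Cdk1, 2 times for Ccnb1, 4 times for Top2a and 4 times for Mki67, on either strand. Of 27457 promoters of the same length in the table, 34.3% held at least 1 CCAAT and 0.637% held 4 or more. TTTGAA was found 2 times for Cdk1, 2 times for Mki67, where 1 of the matches overlaps a CCAAT on the other strand, and 1 time for Top2a. It was not found for Ccnb1, and 16.0% of all promoters held it. The letters TTTGGCGC or TTTCCCGC, forms of the element bound by E2F factors, were found in 0 of the 4 windows and in 1.26% of all promoters. Thus 3 of the 4 windows held TTTGAA together with CCAAT, as did 5.76% of all promoters. These matches describe the exact letters named, other forms of the elements were not searched, and no binding was measured.

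The libraries held 16572004 to 21719946 counts each, and the 4 genes together took 38.2 to 118 of every 1000000 reads. Counts ranged from 329 to 1343 for Top2a, from 211 to 565 for Mki67, from 116 to 473 for Cdk1 and from 36 to 190 for Ccnb1. At the mean count of a group, counting error alone would give a coefficient of variation of 3.59% to 13.3%, and the observed values lay between 12.5% and 47.2%. For Ccnb1 in SAL animals the spread, 12.5%, was no larger than the counting error of 13.2%. The fitted biological coefficient of variation was 23.6% for Mki67, 25.4% for Top2a, 24.6% for Cdk1 and 29.8% for Ccnb1, against a median of 15.9% over all genes tested. In this estimate, which pools the 3 groups, these 4 genes varied more between animals of 1 group than the typical gene. In SAL alone the observed spread was 13.5% for Top2a and 12.5% for Ccnb1, and 21.7% for Mki67 and 21.3% for Cdk1. Nothing in the labels marks a sequencing or library batch. Levels are given as CPM, counts scaled to 1000000 of the TMM-normalized library total, and are compared between animals for 1 gene at a time, not between genes.

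The level of Cdk1, the mitotic kinase, was higher in every BLM animal than in any SAL animal. It stood at 6.79, 10.3, 7.08 and 9.84 CPM in SAL animals 1 to 4 and at 11.95, 11.5, 21.9 and 14.2 CPM in BLM animals 1 to 4. In NINT animals 1 to 4 it stood at 7.55, 13.8, 12.3 and 8.59 CPM. NINT animals 1 and 4 thus lay within the SAL range, while NINT animals 2 and 3 lay above it, within the BLM range.

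Cyclin B1 is the partner that activates CDK1. Its transcript, Ccnb1, stood at 3.69, 3.04, 2.74 and 3.30 CPM in SAL animals 1 to 4 and at 3.97, 3.46, 8.79 and 4.50 CPM in BLM animals 1 to 4. BLM animal 2 lay below SAL animal 1, so that these groups overlapped by 1 of 16 pairs of animals. In NINT animals 1 to 4 the level was 1.94, 3.97, 2.14 and 3.47 CPM, with 2 animals below all SAL animals and 1 above all of them.

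Top2a, which encodes the enzyme that untangles chromosomes, stood at 23.6, 32.3, 26.2 and 29.4 CPM in SAL animals 1 to 4. BLM animals 1 to 4 had 30.6, 25.7, 62.2 and 33.9 CPM, and animals 1 and 2 lay within the SAL range. NINT animals 1 to 4 had 17.7, 31.1, 19.0 and 19.5 CPM. In NINT, 3 animals lay below all SAL and all BLM animals, and animal 2 lay within the range of both.

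Mki67, whose protein is the usual stain for cycling cells, showed no such order of groups. It stood at 15.1, 20.4, 14.5 and 22.4 CPM in SAL animals 1 to 4 and at 15.5, 15.5, 26.2 and 13.7 CPM in BLM animals 1 to 4. BLM animal 3 was the highest of all 12 and BLM animal 4 lay below every SAL animal. In NINT animals 1 to 4 the level was 11.9, 20.1, 12.3 and 12.01 CPM, and 3 of these lay below all other animals of the study.

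**Figure D1:**
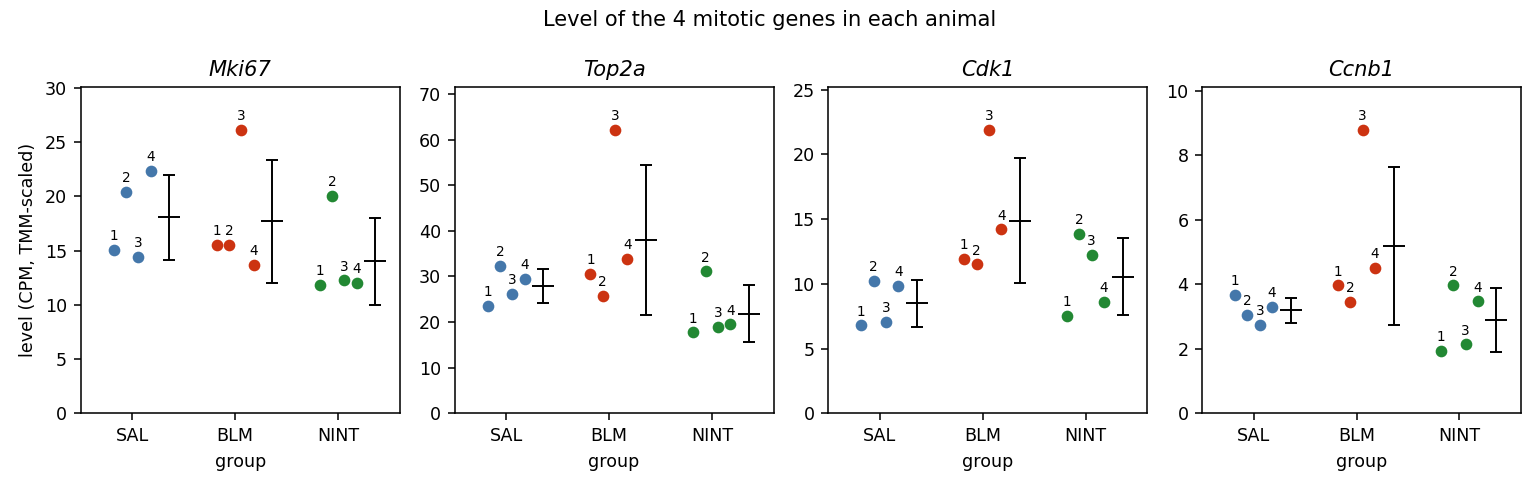
Level in CPM (vertical axes, each from 0) of Mki67, Top2a, Cdk1 and Ccnb1 in the 4 animals of SAL, BLM and NINT; each point is 1 animal, numbered as in the labels, and the bar beside each group is the mean with its SD. BLM animal 3 is the highest BLM point and NINT animal 2 the highest NINT point in every panel, and the SAL and BLM points do not overlap for Cdk1.

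BLM animal 3 had the highest level of its group for all 4 genes, between 1.54 times (Cdk1) and 1.95 times (Ccnb1) the next BLM animal. NINT animal 2 had the highest level of its group for all 4 genes, between 1.13 times (Cdk1) and 1.64 times (Mki67) the next NINT animal. Among SAL animals the highest was animal 4 for Mki67, animal 2 for Top2a and Cdk1, and animal 1 for Ccnb1. The lowest NINT animal was animal 1 for all 4 genes. In BLM and in NINT the highest animal was thus the same for all 4 genes. The lowest BLM animal was not, being animal 4 for Mki67 and animal 2 for Top2a, Cdk1 and Ccnb1.

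The first comparison, BLM against SAL, asks what bleomycin had changed by day 28. Cdk1 averaged 8.49 ± 1.81 CPM in SAL and rose to 14.9 ± 4.82 CPM with bleomycin (SD, n = 4 each), a fold change of 0.81 on the log2 scale (SE 0.25, adjusted p = 0.0208 in edgeR's quasi-likelihood test). This corresponds to 1.75-fold, with a 95% interval of 1.21 to 2.53. It was the only call among the 4 genes, and 40.8% of all 14956 genes tested were called in this comparison, with 18.3% of all genes called as higher in BLM. It was also the only gene of the 4 whose groups did not overlap, as did 37.4% of all genes. Its log2 change lay at the 94.9th percentile of all genes tested.

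Ccnb1 averaged 3.19 ± 0.399 CPM in SAL and 5.18 ± 2.45 CPM in BLM (SD, n = 4 each), with a log2 change of 0.70 (SE 0.31) that did not pass the threshold (edgeR adjusted p = 0.0825). Top2a averaged 27.9 ± 3.77 CPM in SAL and 38.1 ± 16.4 CPM in BLM (SD, n = 4 each), with a log2 change of 0.45 (SE 0.25, edgeR adjusted p = 0.171). For Top2a the 95% interval ran from 0.934-fold to 1.996-fold. Mki67 averaged 18.1 ± 3.92 CPM in SAL and 17.7 ± 5.68 CPM in BLM (SD, n = 4 each), and its log2 change of -0.03 (SE 0.23, edgeR adjusted p = 0.935) lay at the 47.5th percentile of all genes. Its 95% interval ran from 0.691-fold to 1.39-fold, which leaves room for a fall or a rise of that size. The median log2 change of the 4 genes was 0.58, against 0.00 over all genes tested.

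The exact permutation test of single genes (two-sided, on log2 CPM, 70 assignments of 4 animals against 4) gave p = 0.0286 for Cdk1, the smallest value this design allows. The exact p was 0.0571 for Ccnb1, 0.229 for Top2a and 0.886 for Mki67. In all, 12 such tests were made over the 3 comparisons. Without BLM animal 3 the log2 change of Cdk1 was 0.60 and still called (edgeR adjusted p = 0.0447), while that of Top2a was 0.15, that of Ccnb1 0.36 and that of Mki67 -0.24, none of them called. The fit without BLM animal 3 called 35.9% of all genes. Without BLM animal 2, the BLM animal with the lowest level of Top2a, Cdk1 and Ccnb1, 3 of the 4 genes were called. In that fit the log2 change was 0.96 for Cdk1, 0.89 for Ccnb1 (edgeR adjusted p = 0.0305) and 0.64 for Top2a (edgeR adjusted p = 0.0474), and 46.7% of all genes were called.

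The second comparison, NINT against BLM, asks how nintedanib altered these levels after bleomycin. All 4 fitted changes had a negative sign, and 0 of the 4 genes were called in edgeR's quasi-likelihood test, against 5.83% of all genes tested (3.46% of all genes were called as lower in NINT). At an unadjusted p under 0.05 there were 2 of the 4, beside 28.5% of all genes, and limma voom called 0 and DESeq2 called 1. The shares of all genes called by limma voom and DESeq2 are not given here, so these counts have no base rate beside them. Ccnb1 averaged 2.88 ± 0.995 CPM in NINT (SD, n = 4), with a log2 change of -0.85 from BLM (SE 0.31, edgeR adjusted p = 0.1). Top2a averaged 21.8 ± 6.24 CPM in NINT (SD, n = 4), with a log2 change of -0.80 (SE 0.26, edgeR adjusted p = 0.0736). DESeq2 called Top2a with a log2 change of -0.78 (adjusted p = 0.029). Cdk1 averaged 10.6 ± 2.97 CPM in NINT (SD, n = 4), with a log2 change of -0.49 (SE 0.24, edgeR adjusted p = 0.199), and Mki67 averaged 14.0 ± 4.01 CPM (SD, n = 4), with -0.34 (SE 0.24, edgeR adjusted p = 0.351).

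The log2 changes of Ccnb1 and Top2a lay at the 2.49th and 2.94th percentiles of all genes tested in NINT against BLM, and those of Cdk1 and Mki67 at the 7.64th and 14.6th. The median of the 4 genes was -0.65, against -0.01 over all genes. For none of the 4 genes were the NINT and BLM animals fully separated, whereas 16.0% of all genes had groups that did not overlap. The exact permutation test gave p = 0.0857 for Top2a, p = 0.143 for Ccnb1, p = 0.2 for Cdk1 and p = 0.314 for Mki67 (two-sided, n = 4 each).

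These differences rested in part on BLM animal 3. Without it the log2 changes from BLM to NINT were -0.45 for both Top2a and Ccnb1, -0.24 for Cdk1 and -0.08 for Mki67, and 1.80% of all genes were called. Without BLM animal 2, in contrast, Top2a (-0.94, edgeR adjusted p = 0.026) and Ccnb1 (-0.99, edgeR adjusted p = 0.0435) were called, and so were 18.8% of all genes. Without NINT animal 2, the changes of Top2a and Ccnb1 were -1.02 and -1.05 (edgeR adjusted p = 0.0919 and 0.129). Neither was called in that fit, which called 0.112% of all genes.

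**Figure D2:**
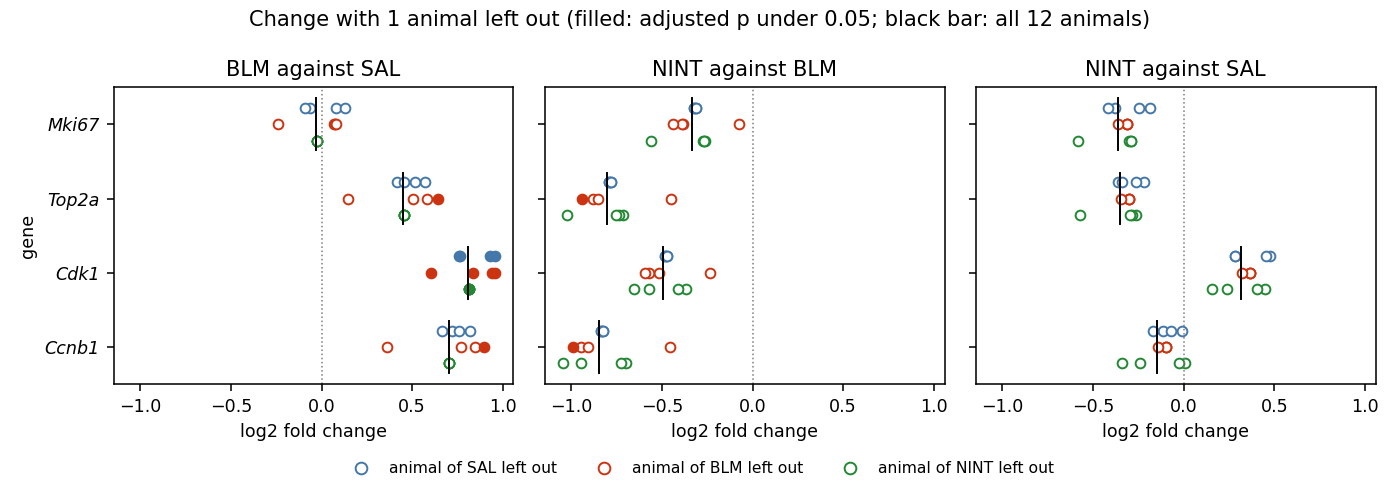
Log2 fold change (horizontal axes) of each gene in the 3 comparisons with 1 animal left out at a time; each circle is 1 fit, coloured by the group of the missing animal and filled where the adjusted p in edgeR was under 0.05, and black bars mark the fit of all 12 animals. The circles for Cdk1 in BLM against SAL are all filled, from 0.60 to 0.96, and the red circles for Mki67 in that comparison lie on both sides of 0.

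The third comparison, NINT against SAL, asks whether the genes still differed from saline controls in treated animals. Of the 4 genes 0 were called by edgeR, 0 at an unadjusted p under 0.05, and 0 by DESeq2 or limma voom. Of all genes tested, 9.30% were called by edgeR and 29.2% had an unadjusted p under 0.05. The shares called by DESeq2 and limma voom are not given here. The log2 change was 0.32 for Cdk1 (SE 0.25, edgeR adjusted p = 0.418) and -0.15 for Ccnb1 (SE 0.31, edgeR adjusted p = 0.797). It was -0.35 for Top2a (SE 0.26, edgeR adjusted p = 0.38) and -0.36 for Mki67 (SE 0.24, edgeR adjusted p = 0.323). The 95% intervals ran from 0.859-fold to 1.80-fold for Cdk1 and from 0.546-fold to 1.11-fold for Mki67, so differences from saline animals within these bounds are not excluded. The groups overlapped for all 4 genes, and 28.4% of all genes had groups that did not. The exact permutation test gave p = 0.314 for Cdk1, p = 0.457 for Ccnb1, p = 0.114 for Top2a and p = 0.171 for Mki67 (two-sided, n = 4 each).

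**Figure D3:**
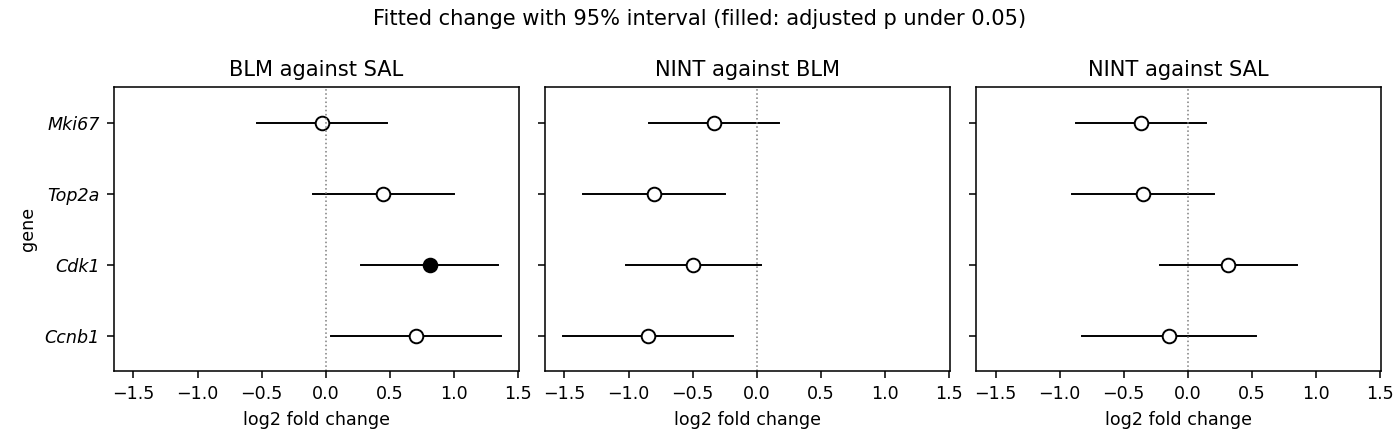
Log2 fold change (horizontal axes) of each gene in the 3 comparisons named above the panels, with its 95% interval from the quasi-likelihood fit (n = 4 animals a group); filled points passed the adjusted p of 0.05. The filled point is Cdk1 in BLM against SAL, at 0.81, and all 4 points of NINT against BLM lie below 0.

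The comparisons share animals: BLM against SAL and NINT against BLM share the BLM animals, so that a high BLM animal moves both, in opposite directions. Set side by side on the log2 scale, in the order of the comparisons above, Cdk1 had 0.81, -0.49 and 0.32. Ccnb1 had 0.70, -0.85 and -0.15, Top2a had 0.45, -0.80 and -0.35, and Mki67 had -0.03, -0.34 and -0.36. Cdk1 is the gene of the 4 whose log2 change in NINT against SAL was above 0 in the fit of all 12 animals, by an amount within its error.

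Some count ratios between the 4 genes differed between groups, mainly ratios to Cdk1. A ratio of 2 genes' raw counts in the same library is free of library scaling, and it was compared only between animals. The ratio of Mki67 to Cdk1 counts was 2.22, 1.99, 2.04 and 2.28 in SAL animals 1 to 4. It was 1.30, 1.35, 1.19 and 0.965 in BLM animals 1 to 4, and 1.57, 1.45, 1.00 and 1.40 in NINT animals 1 to 4. All 8 animals given bleomycin, with or without nintedanib, thus lay below all 4 saline animals.

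The mean of this ratio fell from 2.13 ± 0.139 in SAL to 1.20 ± 0.171 in BLM (SD, n = 4 each; ratio of geometric means 0.56, exact permutation test, two-sided, p = 0.0286). In NINT it was 1.35 ± 0.247 (SD, n = 4), lower than in SAL (ratio of geometric means 0.627, exact permutation p = 0.0286). NINT and BLM overlapped in this ratio (exact permutation p = 0.371). The value 0.0286 is the smallest that 4 animals against 4 allow, and 18 such tests were made over 6 ratios and 3 comparisons, added after the counts had been seen. Leaving out any 1 animal kept the log2 difference between -0.90 and -0.73 in BLM against SAL. In NINT against SAL this difference stayed between -0.75 and -0.53. The exact permutation p was 0.0286 each time, but groups that do not overlap stay apart when 1 animal is left out. These p-values are therefore no further test of the separation.

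Since Cdk1 itself rose, many genes fell relative to it. Of all other genes tested, 52.0% had a ratio to Cdk1 that was lower in every BLM animal than in any SAL animal, so that the fall of Mki67 relative to Cdk1 is shared with most genes. In NINT against SAL the corresponding share was 9.70%.

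The ratio of Top2a to Cdk1 counts was 3.48, 3.15, 3.70 and 2.99 in SAL animals 1 to 4. It was 2.56, 2.24, 2.84 and 2.38 in BLM animals 1 to 4 and 2.35, 2.25, 1.55 and 2.27 in NINT animals 1 to 4. Here too all 8 bleomycin animals lay below all 4 saline animals. The difference from SAL was 0.751-fold in BLM and 0.626-fold in NINT (ratios of geometric means, exact permutation p = 0.0286 for each, n = 4 each). For BLM the exact permutation p was 0.0571 without SAL animal 1 or without SAL animal 3, with log2 differences of -0.39 and -0.36. Over all fits without 1 animal the log2 difference for BLM lay between -0.48 and -0.36. As above, these p-values do not test whether the separation rests on 1 animal.

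The ratio of Mki67 to Top2a counts differed between BLM and NINT. It was 0.508, 0.605, 0.421 and 0.405 in BLM animals 1 to 4 and 0.669, 0.644, 0.646 and 0.615 in NINT animals 1 to 4. NINT was 1.34-fold higher by geometric means, with no overlap (exact permutation p = 0.0286, n = 4 each), but the highest BLM animal, at 0.605, lay close to the lowest NINT animal, at 0.615. Leaving out any 1 animal kept the log2 difference between 0.35 and 0.54. With any 1 NINT animal left out the exact permutation p was 0.0571. Groups that do not overlap stay apart when 1 animal is left out, so this p-value does not test whether the separation rests on 1 animal. Of all other genes tested, 14.7% had a ratio to Top2a that was higher in every NINT animal than in any BLM animal. In SAL animals 1 to 4 the ratio was 0.639, 0.631, 0.551 and 0.762, a mean of 0.646 ± 0.0868, and the NINT mean was 0.643 ± 0.0219 (SD, n = 4 each; exact permutation p = 0.971).

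**Figure D4:**
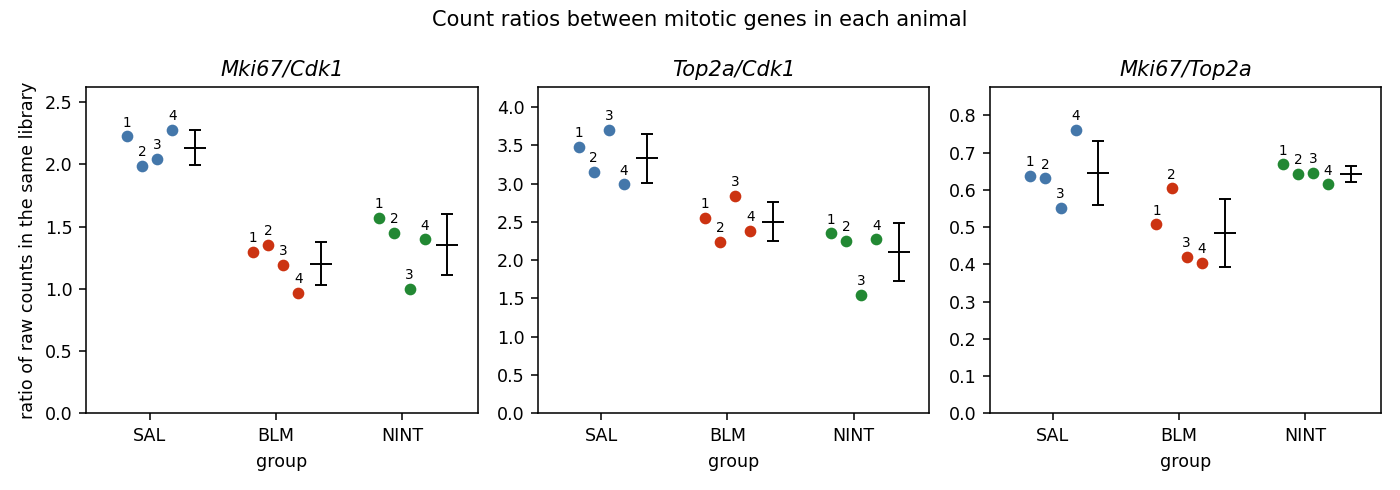
Ratio of raw counts of Mki67 to Cdk1, Top2a to Cdk1 and Mki67 to Top2a (vertical axes, each from 0) in the 4 animals of each group; each point is 1 animal, numbered as in the labels, and the bar beside each group is the mean with its SD. In the first and second panels all BLM and NINT points lie below all SAL points, and in the third the 4 NINT points, from 0.615 to 0.669, lie above the BLM points.

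Ccnb1, the cyclin, had the fewest counts of the 4 genes, and its ratios to the others separated no groups. Of all other genes tested, 33.4% had a ratio to Ccnb1 that did not overlap between BLM and SAL, 14.6% between NINT and BLM, and 5.42% between NINT and SAL. In SAL, BLM and NINT the ratio of Top2a to Ccnb1 averaged 8.88 ± 1.79, 7.43 ± 0.266 and 7.86 ± 1.60 (SD, n = 4 each). Cdk1 to Ccnb1 averaged 2.69 ± 0.653, 2.99 ± 0.360 and 3.89 ± 1.36, and Mki67 to Ccnb1 averaged 5.72 ± 1.29, 3.60 ± 0.729 and 5.08 ± 1.17 in the same order. Over the 9 comparisons with Ccnb1 the lowest exact permutation p was 0.0571, for Mki67 to Ccnb1 in BLM against SAL. In all, 5 of the 18 comparisons of ratios had groups that did not overlap, and 4 of these were ratios to Cdk1 set against SAL. Beside them, 52.0% of all other genes were lower without overlap relative to Cdk1 in BLM than in SAL. The share was 9.70% for NINT against SAL. Relative to Top2a, 14.7% were higher without overlap in NINT than in BLM.

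Taking the group into account changed most how closely Mki67 and Cdk1 followed each other. Over 12 libraries, which share a scaling and fall into 3 groups, the Pearson correlation of log2 CPM, given as a description, was 0.886 for Top2a and Ccnb1, 0.829 for Mki67 and Top2a, and 0.751 for Top2a and Cdk1. It was 0.540 for Mki67 and Cdk1, and 693 of the other genes followed Mki67 more closely than Cdk1 did; without BLM animal 3 it was 0.245, with 5281 genes closer. With the mean of each group removed it was 0.840 for Mki67 and Cdk1, and 40 genes followed Mki67 more closely. This within-group value was 0.740 without BLM animal 3 and 0.599 without BLM animal 3 and NINT animal 2. For Top2a and Ccnb1 the within-group value was 0.831, and 0.253 without these 2 animals, so that it came largely from them. In the same order the values were 0.701 and -0.038 for Mki67 and Ccnb1, and 0.628 and 0.0068 for Cdk1 and Ccnb1. They were 0.879 and 0.467 for Mki67 and Top2a, and 0.871 and 0.723 for Top2a and Cdk1.

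The genes whose pattern was most like that of the 4 were ranked by the Pearson correlation of log2 CPM with the mean standardised level of the 4 genes, over 12 libraries and 13507 other genes with a mean of at least 1 CPM. The highest was ENSRNOG00000008165, at 0.989, and 0.973 without BLM animal 3. It stood at 5.34 ± 1.12 CPM in SAL, 7.52 ± 3.10 CPM in BLM and 4.64 ± 1.46 CPM in NINT (SD, n = 4 each). Its highest BLM animal was animal 3, at 12.1 CPM, and its highest NINT animal was animal 2, at 6.82 CPM. These are the highest animals of the 4 genes too, but it was chosen for its likeness to them, so this is no separate result. The second was ENSRNOG00000021713, at 0.945, and 0.867 without BLM animal 3, with 11.2 CPM in that animal and 2.05 to 5.49 CPM in the other SAL and BLM animals. In all, 16 genes reached a correlation of at least 0.9, and neither named identifier has a symbol in the tables used here.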

How the data were processed

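QuantSeq FWD libraries, which read near the 3′ end of polyadenylated transcripts, were made from 12 lungs, per the labels' protocols. The authors deposited raw counts, whole numbers of reads per Ensembl gene. FastQC, STAR, HTSeq and the build rn6 are named, without versions, per the submitters' processing notes; the annotation release and strand setting are not given in the sources used here, so overlapping genes could share reads. Columns were assigned to animals by their names; 7 unnamed columns were empty. Nothing says more of the replicates than that each is 1 animal, and the 18 within-group pairs of libraries all differed beyond counting error (lowest chi-square divided by its degrees of freedom 9.72).

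Counts were analysed in R 4.3.3. Of 23413 genes with a count, filterByExpr of edgeR 4.0.16 (minimum count 10, minimum total 15) kept 14956. Comparisons used the quasi-likelihood test of edgeR with TMM factors on all 12 libraries, 1 coefficient per group, with Benjamini-Hochberg adjustment over all genes tested and a threshold of 0.05. Standard errors and 95% intervals come from that fit. Exact permutation tests used log2 CPM (prior count 2) or log2 count ratios. Alternatives were library size or DESeq2 size factors, DESeq2 1.42.0, limma 3.58.1 (voom), robust estimation, other filters, only the groups compared, a replicate block and leaving out each animal. The test was checked on simulated data. The rule for named genes was the 4 genes always, called genes of each pathway list, and the genes most like the 4 (without names, 2 identifiers). The 23 written lists of cell cycle and cell type genes (201 symbols) were not run, because 0 identifiers matched the reference table. The genes, lists and tests were chosen with earlier results of these data known.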

Additional observations from a re-analysis of the deposited data

Results flagged for a closer look

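Each level, count ratio, library total and TMM factor was searched in each group of 4 for an animal set apart from the rest, by Dixon's criterion (gap over range above 0.829). Of 36 sets 5 had such an animal, where chance gives about 1.8. The sets share animals and counts, so this comparison does not test for an excess. Mki67 in BLM animal 3 stood at 26.2 CPM, where BLM animals 1, 2 and 4 had 13.7 to 15.5 CPM. In NINT animal 2, Mki67 stood at 20.1 CPM, against 11.9 to 12.3 CPM in the other NINT animals, and Top2a at 31.1 CPM, against 17.7 to 19.5 CPM. The ratio of Top2a to Cdk1 counts was 1.55 in NINT animal 3, against 2.25 to 2.35 in the other NINT animals. The TMM factor of SAL animal 3 was 0.993, against 1.03 in the other SAL libraries, and it enters every CPM of that animal but none of the count ratios.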

How the results depend on the processing

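The call of Cdk1 in BLM against SAL held under all 21 alternatives, with log2 fold changes from 0.60 to 0.96 and adjusted p from 0.00561 to 0.0493. DESeq2 called Top2a in NINT against BLM (-0.78), so that 1 of the 4 genes was called there, with no share of all genes called by DESeq2 given here. With no filter on low counts Mki67 in BLM against SAL was 0.028, reversed in sign. Fits without 1 animal gave -0.24 to 0.13 for Mki67, 0.15 to 0.64 for Top2a and 0.36 to 0.89 for Ccnb1 in BLM against SAL, with 1 to 3 genes called. In NINT against BLM they gave -1.02 to -0.45 for Top2a, -1.05 to -0.45 for Ccnb1, -0.65 to -0.24 for Cdk1 and -0.56 to -0.08 for Mki67, with 0 to 2 genes called. In NINT against SAL they gave -0.34 to 0.0048 for Ccnb1, -0.57 to -0.22 for Top2a, 0.16 to 0.48 for Cdk1 and -0.59 to -0.18 for Mki67, with 0 genes called. In these fits 32.3% to 46.7% of all genes tested were called in BLM against SAL. The share was 0.112% to 18.8% in NINT against BLM and 4.45% to 22.1% in NINT against SAL. Among the fits without 1 animal, the gained calls were in the fit without BLM replicate 2. Log2 differences of count ratios without 1 animal ranged from -0.069 to 0.0864 for Mki67 to Top2a in NINT against SAL. The Spearman correlation of ENSRNOG00000021713 with the 4 genes was 0.909. The cause of these changes was not tested. The other scalings of log2 CPM left every single-gene permutation test on its side of the threshold.

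No clear sign was seen that the replicate numbers of the labels pair the animals. Of 12 same-numbered pairs 1 had deviations correlated above 0.1 (range -0.17 to 0.20), and in 6 of 24 comparisons the same number correlated best. Low correlations cannot show whether same-numbered animals were handled together. With a replicate block 1, 0 and 0 of the 4 genes were called in the 3 comparisons, and Cdk1 in BLM against SAL was at 0.79 (edgeR adjusted p = 0.021). The share of all genes called with the block is not given here. Depth limits Ccnb1 most, with 36 to 190 counts. The planned counts over gene lists were not run, for want of gene names.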
